A study of Mus musculus with 8 samples.

Results

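Of the 15882 regions that were bound by Smad4 in both wild-type (WT) libraries and in neither knockout (KO) library of this series, 4318 (27.2%) had their centre within 1 kb of the start or end of exactly 1 protein-coding gene on an autosome. These gene-end regions were chosen by the called peaks themselves: peaks of the 2 WT lists that overlapped by at least 1 bp were merged, merged regions holding a peak of both lists were kept, and those meeting a peak of either KO list were dropped. They covered 3928 kb and lay at 4192 genes. Presence in WT and absence in KO are therefore given by the choice and are not findings.

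The data are chromatin immunoprecipitation sequencing (ChIP-seq) peak lists for Smad4 in C57BL/6 mouse CD4+ T cells, taken from the spleen together with lymph nodes. The cells had been activated and held with IL6 and a TGFbR inhibitor, and were taken at 12 h. All groups share this treatment, so none shows Smad4 without the inhibitor. WT replicates 1 and 2 came from females. The KO genotype is CD4cre;Smad4fl/fl, in which a Cre driven from Cd4 removes floxed Smad4 in the T lineage; KO replicate 1 was pooled from males and females and KO replicate 2 was male, so sex and genotype cannot be told apart. The labels do not say whether replicates were separate animals, nor the ages. The 4 input samples were not used here. The WT lists were long, with 27120 peaks for replicate 1 and 19792 for replicate 2; the KO lists held 564 and 424. The lists hold no measure of Smad4 loss in the KO cells other than these counts. They give positions only, so the width of a peak in bp is the one quantity available per library, and read depth is unknown.

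Smad4 is the shared partner of the receptor-regulated SMAD proteins. After TGF-β or BMP receptors phosphorylate those partners, the complexes enter the nucleus and bind DNA beside cell-type-specific factors. SMAD proteins contact a short box, CAGAC, and a GC-rich element of the GGCGC kind. With SKI or SnoN in the complex, target genes are repressed; in T cells this circuit takes part in the choice between Th17 and regulatory fates.

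The promoters below are the first 6, in order of region width, whose RefSeq promoter lay wholly inside a region at the gene start; Foxn3, which ranks among them by width, is left out because its listed promoter lay outside its region. They are shown as the DNA under some of the broadest reproducible Smad4 peaks of the set. Each is the part of the RefSeq promoter made up of the 250 bases just before its listed start (GRCm38.p6, the same assembly as mm10). The bases are written 5′ to 3′ on the gene's strand. Capitals mark CAGAC and GGCGC on either strand. At Nr4a3 and Fyn the gene bounds used for distances start earlier, at 48045078 and 39369743. Most of the Nr4a3 window, with all its marked matches, and the last part of the Fyn window thus lie inside the gene by those bounds. Klf13 is at chr7:63938916-63939165 (minus strand), Pim1 at chr17:29490535-29490784 (plus), Gadd45g at chr13:51846425-51846674 (plus), Nr4a3 at chr4:48045055-48045304 (plus), Fyn at chr10:39369549-39369798 (plus) and Igf1r at chr7:67952007-67952256 (plus).
Klf13: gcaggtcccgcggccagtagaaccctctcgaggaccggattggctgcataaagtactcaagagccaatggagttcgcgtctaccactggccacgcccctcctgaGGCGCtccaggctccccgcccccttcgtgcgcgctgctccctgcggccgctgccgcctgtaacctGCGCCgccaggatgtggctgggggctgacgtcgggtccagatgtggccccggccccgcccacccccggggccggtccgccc
Pim1: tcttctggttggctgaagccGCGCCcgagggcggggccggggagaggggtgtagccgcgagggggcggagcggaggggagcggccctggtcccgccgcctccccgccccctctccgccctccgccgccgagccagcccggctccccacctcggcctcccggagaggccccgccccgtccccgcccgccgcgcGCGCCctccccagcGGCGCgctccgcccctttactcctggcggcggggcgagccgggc
Gadd45g: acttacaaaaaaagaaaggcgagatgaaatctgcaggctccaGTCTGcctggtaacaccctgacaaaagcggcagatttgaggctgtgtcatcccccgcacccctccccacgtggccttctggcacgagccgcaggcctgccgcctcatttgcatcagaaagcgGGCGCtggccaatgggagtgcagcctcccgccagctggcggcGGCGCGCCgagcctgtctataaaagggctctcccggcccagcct
Nr4a3: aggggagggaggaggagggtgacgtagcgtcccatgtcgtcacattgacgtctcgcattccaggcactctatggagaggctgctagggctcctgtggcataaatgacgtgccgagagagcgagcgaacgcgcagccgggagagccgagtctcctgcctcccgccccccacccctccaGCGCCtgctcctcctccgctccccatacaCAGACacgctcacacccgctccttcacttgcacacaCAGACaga
Fyn: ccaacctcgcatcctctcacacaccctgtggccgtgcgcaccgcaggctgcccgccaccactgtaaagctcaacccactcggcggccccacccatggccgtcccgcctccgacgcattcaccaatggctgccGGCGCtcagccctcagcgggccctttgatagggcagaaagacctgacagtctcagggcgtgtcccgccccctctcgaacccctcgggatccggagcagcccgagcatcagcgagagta
Igf1r: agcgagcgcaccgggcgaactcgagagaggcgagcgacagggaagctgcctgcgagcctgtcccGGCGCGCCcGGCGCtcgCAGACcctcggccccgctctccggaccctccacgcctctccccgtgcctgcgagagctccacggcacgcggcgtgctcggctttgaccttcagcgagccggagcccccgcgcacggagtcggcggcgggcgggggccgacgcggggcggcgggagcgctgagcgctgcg

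These promoters were GC-rich, from 62.0% in Gadd45g to 82.4% in Pim1. Every one of them held GGCGC, with 1 match in Nr4a3 and Fyn, 2 in Klf13 and 3 in Pim1, Gadd45g and Igf1r. The CAGAC box was found in Nr4a3 (2 matches), Gadd45g (1) and Igf1r (1), and these letters were absent from the Klf13, Pim1 and Fyn windows. A match describes the letters and does not show a bound site. How common these letters are in all promoters is given below.

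The regions lay at gene starts. The promoter table gave a strand for the genes of 3475 regions, and 3313 of these (95.3%; exact 95% interval 94.6% to 96.0%) were nearer the start than the 3′ end of the gene. The remaining 162 (4.66%) were nearer the 3′ end. For 843 regions the gene had no strand in the table, and 423 were nearer its lower and 420 its higher coordinate. Intervals here are Clopper-Pearson and cover counting error only, since neighbouring regions are not independent.

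At starts, the region centre lay a median of 75 bp downstream of the annotated start, with quartiles at -60.5 and 238 bp (negative is upstream). The centre of the WT replicate 1 peak lay at a median of 76.5 bp and that of the WT replicate 2 peak at 70.5 bp. Downstream centres made up 64.6% (62.9% to 66.2%), and 67.9% of centres fell within 250 bp of the start. The region covered the start base itself in 84.6% (2802 of 3313). The peak lists thus placed most of these regions over the start, with more of them centred in the first bases of the gene than before it.

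**Figure D1:**
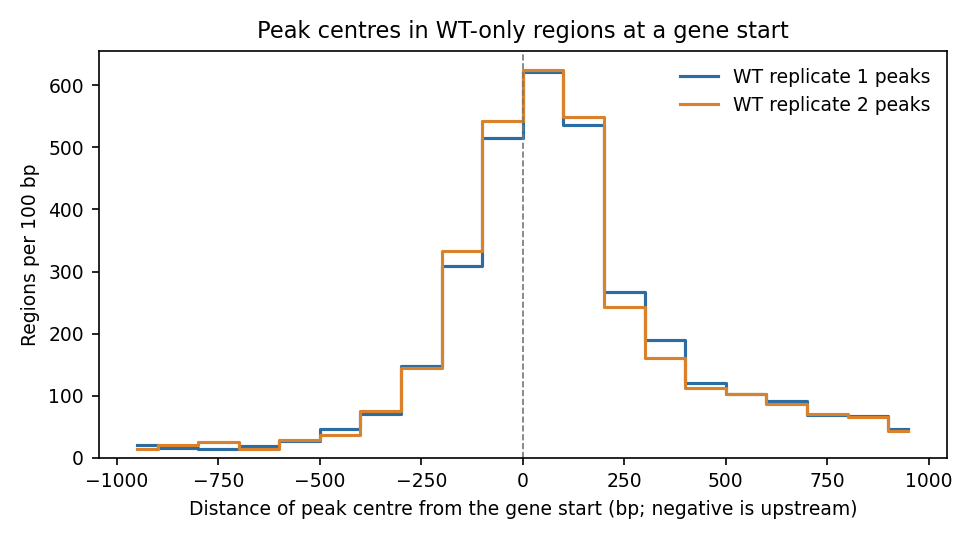
Number of regions at a gene start (of 3313) per 100 bp of distance between the centre of the peak and the annotated start, for WT replicate 1 (blue) and WT replicate 2 (orange); negative is upstream. Both curves are highest from 0 to 100 bp, with 621 and 625 regions.

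Because a region had to hold overlapping peaks of both libraries, the agreement of their positions is partly set by the choice and is given as a description. The centres of the WT replicate 1 and 2 peaks in a region differed by a median of 49.0 bp, and by at most 100 bp in 70.4% of the 4318 regions. The shared bases made up a median of 73.6% of the merged region. A single peak stood in the region in 98.6% of cases in WT replicate 1 and in 96.4% in WT replicate 2. The smallest overlap that joined the lists was 3 bp.

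Peak width in WT replicate 1 ran from 240 to 6158 bp with a median of 670 bp (quartiles 460 and 1012). In WT replicate 2 it ran from 242 to 5634 bp with a median of 586 bp (quartiles 398 and 892). WT replicate 1 had the wider peak in 63.3% of regions, and the widths were within 1.5 times of each other in 74.5%. Across the 4318 regions the widths had a Spearman correlation of 0.756, given as a description because the points share 2 libraries. Both libraries had a peak of at least 1000 bp in 724 regions (16.8%) and of at least 2000 bp in 75. At the other extreme, 187 regions stood at the smallest width of the WT replicate 1 list, 356 at that of the WT replicate 2 list and 69 at both.

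**Figure D2:**
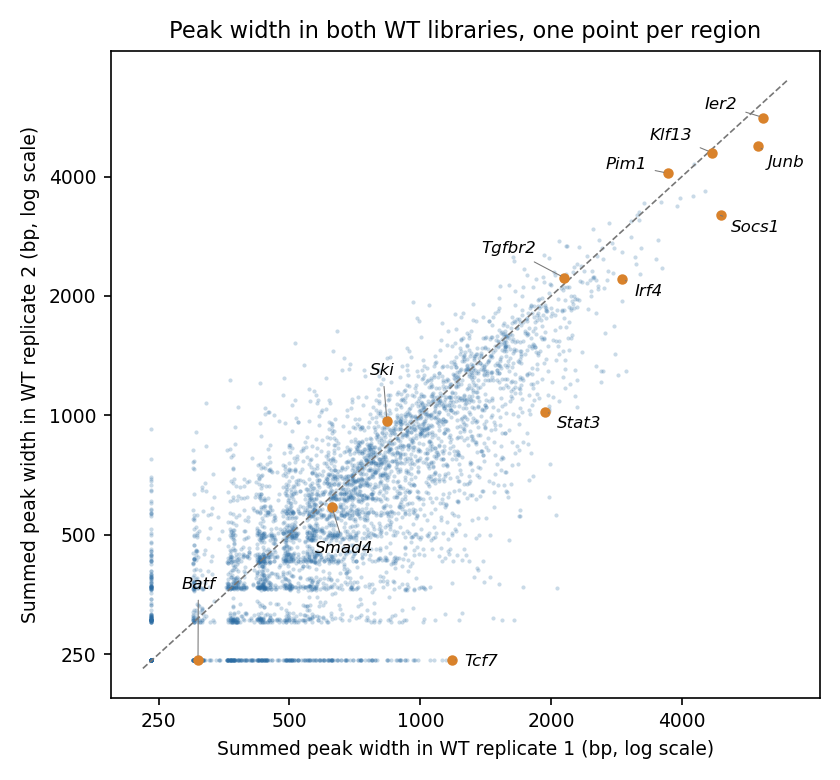
Summed peak width in WT replicate 1 (x) and WT replicate 2 (y), in bp on log axes, for the 4318 regions; the dashed line marks equal widths and orange points are named genes (for genes with several regions, the widest). Ier2 and Junb sit at the upper right, and the rows at the lower left are the smallest widths of each list (240 and 242 bp).

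Ordered by the smaller of the 2 widths, the first region at a gene start lay at Klf13, a Krüppel-like transcription factor gene, at chr7:63936242-63940957. Its peaks were 4692 bp in WT replicate 1 and 4596 bp in WT replicate 2. Pim1, a serine/threonine kinase gene induced by STAT signalling, followed at chr17:29489201-29493278 with 3714 and 4078 bp. The nearest KO peak lay 972 bp away, closer than at any other of the first 12 start regions. Gadd45g, a stress and cytokine response gene, had 4516 and 3682 bp at chr13:51844681-51849458, as 2 peaks in each library. Nr4a3, an orphan nuclear receptor gene induced by T cell receptor signals, had 3952 and 3538 bp at chr4:48042363-48046314.

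The region of the forkhead gene Foxn3 (chr12:99560626-99565071) was 3 peaks in each library, with 3894 and 3366 bp in sum. Fyn, a Src-family kinase of T cell receptor signalling, had 3280 and 3428 bp (chr10:39368526-39371953), and 9 further WT-only regions over 1 kb inside the gene. Igf1r, the insulin-like growth factor receptor gene, had 3194 and 3250 bp (chr7:67950193-67953442). Lrch1 had 3062 and 3096 bp (chr14:74946322-74949429) and the predicted gene Gm20346 3530 and 2766 bp (chr9:62341965-62345494). Zswim6 (2720 and 3046 bp; chr13:107888586-107891815), the GC-box factor gene Sp3 (2768 and 2718 bp; chr2:72978228-72981010) and Gtf2a1 (3226 and 2642 bp; chr12:91588257-91591482), which encodes the large subunits of the general factor TFIIA, closed the first 12. The smaller of the 2 widths thus ran from 2642 bp at Gtf2a1 to 4596 bp at Klf13.

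Regions nearer the 3′ end were narrower, with medians of 506 and 432 bp in WT replicates 1 and 2 against 676 and 596 bp at starts. The quartiles of their centres were -491 and 642 bp from the 3′ end, where negative is inside the gene, and 61.1% (53.1% to 68.7%) lay beyond the gene. The 3′ end base was covered by 47 of 162, a smaller part than the 84.6% of start regions that covered the start. Of the 158 genes with such a region, 44 also had a region at the start. The widest lay at short genes. The region at Junb, an AP-1 subunit gene (chr8:84974492-84980465; 5974 and 4766 bp), and that at Socs1, the inhibitor of JAK signalling (chr16:10781955-10786891; 4908 and 3192 bp), each spanned the gene from start to end. Cd3d, a subunit gene of the T cell receptor complex, had a region over its 3′ end, centred 677.5 bp inside the gene (chr9:44985283-44987466; 1952 and 1830 bp). The others among the first 6 were Gm20783 (chr9:124422901-124425958; 3058 and 2822 bp), where a noncoding gene started within 1 kb, Prr7 (chr13:55471276-55473067; 1724 and 1722 bp) and Mrpl58 (chr11:115412677-115414093; 1382 and 1410 bp), where 3 transfer RNA genes had an end within 1 kb. Of all 162, 13 had a start of some gene of the promoter table within 1 kb of their centre.

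Among genes without a strand, which the naming rule did not rank and whose regions were picked after their values were seen, the immediate-early gene Ier2 had the widest region of the whole set (chr8:84658587-84665311; 6158 and 5634 bp). Trim8 (4274 and 4294 bp), Atxn1 (4238 and 3568 bp), Klf10 (3572 and 3456 bp), the cyclin gene Ccnd2 (4836 and 3216 bp), Ap3m2 (3158 and 3208 bp) and Adamts6 (3182 and 3108 bp) came next. At Trim8 and Adamts6 the region lay at the lower coordinate of the gene, and at Atxn1, Klf10, Ccnd2 and Ap3m2 at the higher one. At the other end of the order, regions tied at the smallest width of the WT replicate 1 list, 240 bp. Ptpn23, Ubp1 and Wdr48, last in this tie by position, had 304, 602 and 314 bp in WT replicate 2, so they are examples of the tie and not its narrowest regions.

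Most genes held 1 region (4071), 116 held 2 and 5 held 3. Irf4, a transcription factor that opens Th17 loci with BATF, had 1 region that covered its start and was centred 804 bp upstream (2908 and 2208 bp; chr13:30746927-30749931). It also had 2 small ones at its 3′ end, of 450 and 378 bp and of 316 and 242 bp. Ccr7, the receptor gene for homing to lymph nodes, had its wide region at the lower coordinate (2796 and 1684 bp; chr11:99142590-99145385) and 2 narrower ones at the higher coordinate. Letm2, Fut7 and Fam136a were the other genes with 3, and there both libraries were under 800 bp except at 1 Letm2 region (1228 and 792 bp).

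The gene lists below were read against all autosomal protein-coding genes, of which 20.4% (4192 of 20560) had a gene-end region. Genes of the TGF-β and SMAD pathway had one in 20 of 35 cases (57.1%; interval 39.4% to 73.7%), with median widths of 1066 and 900 bp in WT replicates 1 and 2, against 670 and 586 bp over the whole set. Smad6, which encodes an inhibitory SMAD, had the widest (2632 and 2474 bp; chr9:64020481-64023348). The type II receptor gene Tgfbr2 had 2146 and 2222 bp (chr9:116174155-116176434), and the type I receptor gene Tgfbr1 862 and 900 bp. Id3, a dominant-negative partner of E proteins and a SMAD target in many cells, had 1564 and 1470 bp (chr4:136143381-136145474), and Trim33, a ubiquitin ligase that binds SMAD complexes, 1240 and 1552 bp (chr3:103278781-103280340).

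The receptor-regulated SMAD genes Smad1 (1066 and 1184 bp), Smad2 (772 and 726 bp), Smad3 and Smad5 (1398 and 766 bp) each held a gene-end region. Smad3 held 2 at its start, one of 882 and 754 bp (chr9:63757732-63758613) and one of 498 and 242 bp inside the gene (chr9:63756901-63757398). Smad4 itself had 626 and 588 bp at its higher coordinate (chr18:73703546-73704200), and the nearest KO peak was 22644 bp away. Ski, the co-repressor gene, had 838 and 968 bp over its start (chr4:155221543-155222606) and 7 further WT-only regions inside the gene. Its relative Skil is missing from the set because the region at its end also met KO peaks. The inhibitory gene Smad7 and the co-repressor genes Tgif1 and Tgif2 had WT-only regions only deeper inside the gene, as had Pmepa1 and Zfyve9. The ligand genes Tgfb1, Tgfb2 and Tgfb3 had no such region at either end or inside, nor had Smad9, Bmpr2 and Ltbp3.

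Of the IL-6 and STAT3 genes, 14 of 16 (87.5%; 61.7% to 98.4%) had a gene-end region, with medians of 1102 and 1022 bp. Beside Pim1 and Socs1 these were led by Bcl6, the repressor gene of follicular helper T cells (2582 and 2774 bp; chr16:23986603-23989782), and by Cish, a STAT5 feedback gene (1904 and 1682 bp; chr9:107295115-107297018). Stat3, the transcription factor that IL-6 activates, had 1932 bp in WT replicate 1 and 1022 bp in WT replicate 2 (chr11:100938352-100940283). Of the receptor genes, Il6ra had 1210 and 1326 bp, alike in both libraries, and Il6st had 428 and 1208 bp, wider in WT replicate 2. Mcl1 had a WT-only region only inside the gene and Tyk2 an end peak in 1 WT list.

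Of the Th17 genes, 6 of 17 (35.3%; 14.2% to 61.7%) had one, an interval that includes the share over all genes. After Irf4 came Maf (1144 and 1176 bp), the cytokine gene Il21 (798 and 1014 bp; chr3:37232544-37233557) and the NF-κB cofactor gene Nfkbiz (982 and 644 bp). Ahr had 918 bp in WT replicate 1 and 304 bp in WT replicate 2, and Batf was narrow in both (308 and 242 bp). Rora, Il1r1, Hif1a and Runx1 had WT-only regions inside the gene and none at an end. Il17a, Il17f, Il22, Il23r, Ccr6 and Ccl20 had no WT-only region at an end or inside.

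Regulatory T cell genes had a gene-end region in 6 of 13 cases (46.2%; 19.2% to 74.9%): Ctla4, the inhibitory receptor gene (780 and 766 bp), Nrp1 (1080 and 674 bp), Ikzf2 (894 and 662 bp), Tigit (506 and 372 bp), Tnfrsf18 (438 and 242 bp) and Il2ra (424 and 242 bp, at the 3′ end). The start of Il2ra had a wider region (1060 and 928 bp; chr2:11642125-11643184) that met peaks of both KO lists and so is not in the set. The 6 in the set had WT replicate 2 widths under 800 bp. Th1 and Th2 genes had 3 of 17 (17.6%; 3.80% to 43.4%; 7 without WT replicate 2), the widest at Ccr8 (1324 and 1148 bp), Stat6 (332 and 398 bp) and Il12rb1 (372 and 318 bp). Their defining factor genes were elsewhere: Gata3 was bound inside only, and Tbx21 and Eomes had an end peak in 1 WT list. The intervals of the regulatory T cell list and of the Th1 and Th2 list both include the 20.4% over all genes.

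Genes of T cell identity had a gene-end region in 14 of 23 cases (60.9%; 38.5% to 80.3%). Besides Cd3d and Ccr7 wide regions lay at Bcl11b, a commitment factor gene (2668 and 1616 bp; chr12:108001841-108004508), and at the chromatin organiser gene Satb1 (1974 and 1058 bp). Lck had 828 and 524 bp, Zap70 624 and 530 bp and Cd3e 490 and 672 bp. Tcf7 differed between libraries, with 1180 bp in WT replicate 1 and 242 bp, the smallest width of its list, in WT replicate 2. Cd4, Ets1 and Lef1 had WT-only regions only inside the gene. None of 10 B cell, 12 myeloid, 10 hepatocyte and 9 neuron marker genes had a gene-end region; the upper bounds of these shares were 30.8%, 26.5%, 30.8% and 33.6%, all above the 20.4% over all genes, so the lists are too short to set them below it. Without WT replicate 1 the hepatocyte list had 1 gene, and without WT replicate 2 the myeloid and neuron lists had 1 each. With a gene-end window of 2 kb the neuron list also had 1. At the main setting, the B cell gene Cd79a had a WT-only region at an end shared with another gene. Pax5 (B cell) and Map2 (neuron) had one inside the gene only. Cebpa (myeloid), Apoa1 (hepatocyte) and Camk2a (neuron) had an end peak in 1 WT list.

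Activation genes had a gene-end region in 19 of 31 cases (61.3%; 42.2% to 78.2%), with medians of 1218 and 948 bp. After Ier2, Junb and Nr4a3 the widest lay at Rel, an NF-κB subunit gene (2166 and 2278 bp; chr11:23769535-23771812). Fos had 1816 and 1170 bp, Fosl2 2222 and 1568 bp and Nfatc3 1654 and 2060 bp. Fosb (240 and 392 bp), Nfkbie (362 and 242 bp) and Rela (302 and 544 bp) were narrow in both libraries. Jun, Nfatc1 and Tnfaip3 are not in the set, because a region at their end met a KO peak, and Jund, Nfkbib and Nr4a2 had a region at an end shared with another gene.

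Genes with general functions were also bound. RNA splicing factor genes had a gene-end region in 16 of 34 cases (47.1%; 29.8% to 64.9%), led by Sf1 (1318 and 1260 bp) and Srsf4 (1136 and 1168 bp), and another 11 had a region at a shared end. Cell cycle genes had 14 of 27 (51.9%; 31.9% to 71.3%). There Ccnd2 was followed by the CDK inhibitor gene Cdkn1b (1600 and 2134 bp; chr6:134919413-134921546), the retinoblastoma gene Rb1 (1206 and 1646 bp) and Cdkn2d (1076 and 1332 bp). Glycolysis genes had 7 of 15 (46.7%; 21.3% to 73.4%), with Pkm at 1908 and 1980 bp and the glucose transporter gene Slc2a1 at 950 and 906 bp.

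Families were taken by gene symbol. Cytosolic ribosomal protein genes had a gene-end region in 46 of 82 cases (56.1%; 44.7% to 67.0%), with median widths of 564 and 612 bp, close to those of the whole set. Translation initiation factor genes had 27 of 53 (50.9%) and proteasome genes 17 of 38 (44.7%). Mitochondrial ribosomal protein genes had 23 of 78 (29.5%; 19.7% to 40.9%) and NADH dehydrogenase genes 10 of 38 (26.3%; 13.4% to 43.1%), intervals that include the 20.4% over all genes. A region at a shared end, which the choice leaves out, lay at another 13 cytosolic ribosomal, 10 translation initiation factor, 6 proteasome, 26 mitochondrial ribosomal and 12 NADH dehydrogenase genes. Genes named Zfp with a number had a gene-end region in 90 of 388 cases (23.2%), solute carriers in 66 of 362 (18.2%) and clustered histone genes in 13 of 67 (19.4%). Of 1103 olfactory receptor genes 2 had one (0.181%; 0.0220% to 0.653%), of 349 vomeronasal receptor genes 1, of 53 keratin genes 1 and of 39 clustered Hox genes 1. The 2 olfactory receptor genes, Olfr525 and Olfr9, were bound at the 3′ end, as was the keratin gene Krt10.

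**Figure D3:**
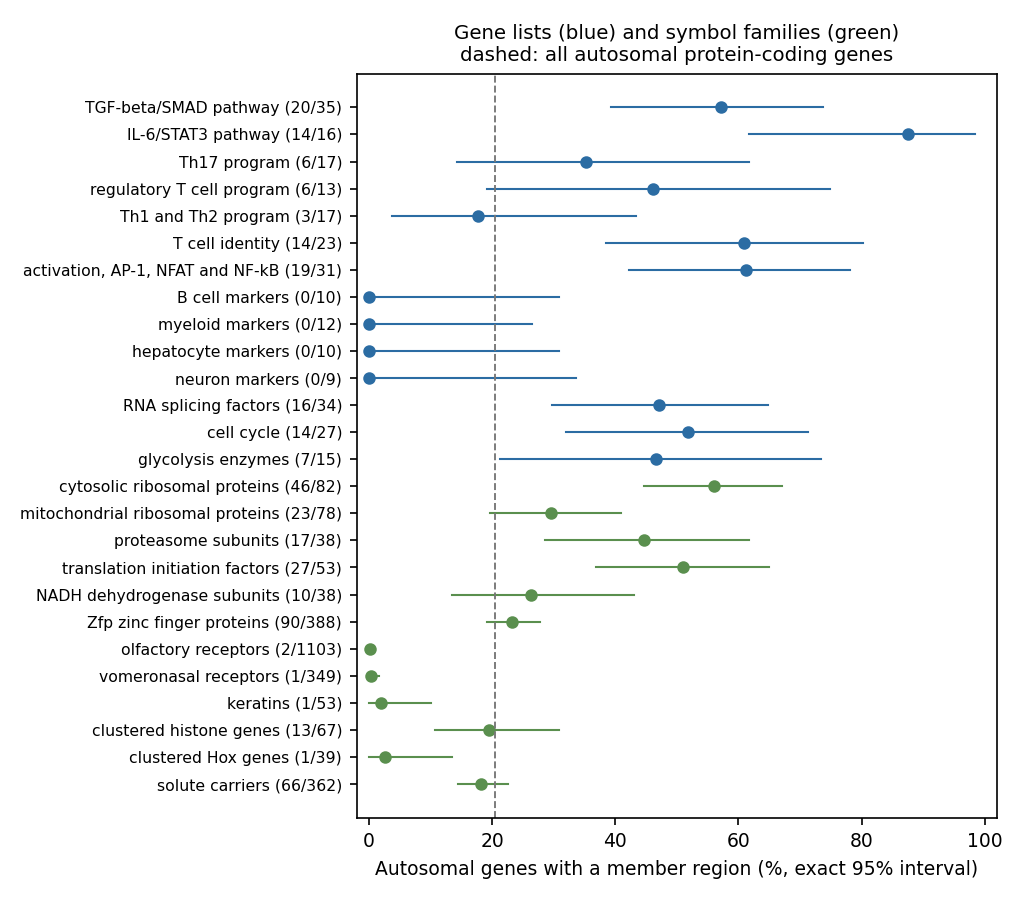
Share of autosomal genes of each list (blue) or symbol family (green) with a gene-end region, in percent with exact 95% intervals; the counts stand beside each name. The dashed line is the 20.4% over all autosomal protein-coding genes; the IL-6/STAT3 list is farthest above it, and olfactory and vomeronasal receptors lie near 0.

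The promoter sequence differed from that of other genes. Of 16457 autosomal protein-coding genes with a 300-base RefSeq promoter (250 bases before to 50 after the start), 2968 promoters met a gene-end region. Their median GC content was 63.7%, against 56.7% over all promoters and 52.3% for the 10459 promoters that met no WT peak. Their median observed to expected CpG ratio was 0.844, against 0.597 and 0.324, and 87.2% had a ratio over 0.6. Promoters met by a region at shared ends had a median GC content of 63.7% and a median ratio of 0.875, with 92.6% over 0.6. The high GC content and CpG ratio were thus not particular to ends of 1 gene. The share of promoters met by a gene-end region was 0.883% (0.605% to 1.24%) at ratios under 0.2 and 41.4% (38.8% to 44.0%) at ratios of 1 and over. It rose in every step between. Width moved less: the median of the smaller width was 497 bp in the lowest class, 472 bp in the next and 662 bp in the highest.

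**Figure D4:**
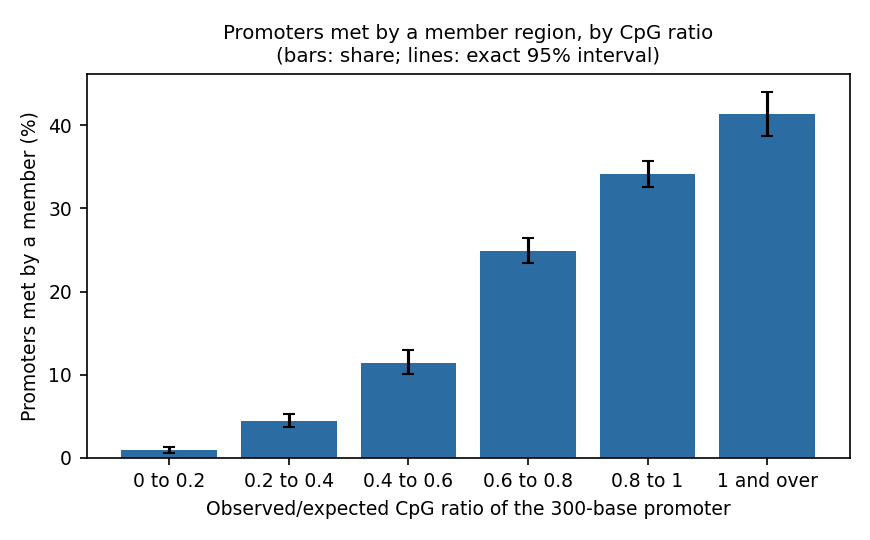
Share of promoters met by a gene-end region (bars, percent) by the observed to expected CpG ratio of the 300-base promoter, with exact 95% intervals as lines. Shares run from 0.883% at ratios under 0.2 to 41.4% at 1 and over.

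Motifs were counted as the share of promoters with at least 1 match on either strand. The SMAD box CAGAC was in 47.7% of promoters met by a gene-end region (45.9% to 49.6%) and in 48.7% of all promoters, a value inside that interval. Against promoters met by no WT peak, its share was 57.1% and 47.0% under 50% GC, 51.8% and 55.9% at 50% to 60%, 48.6% and 47.3% at 60% to 70%, and 39.0% and 39.3% at 70% and over, with no one direction. The palindrome GTCTAGAC was in 11 promoters met by a gene-end region (0.371%, interval 0.185% to 0.662%) and in 0.225% of all, a value inside that interval. GGCGC was in 74.7% against 48.0%, and in promoters of 70% GC and over it was in 95.6% of those met and 96.4% of those met by no WT peak; at 60% to 70% GC the shares were 80.8% and 75.4%, at 50% to 60% they were 58.7% and 30.3%, and under 50% they were 25.1% and 5.89%. The GC box GGGCGG, bound by Sp and Klf factors, was in 74.9% against 47.3%. It can share bases with GGCGC. Promoters met by a region at shared ends had GGCGC in 75.2% and the GC box in 68.8%.

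The ETS motif CCGGAAG was in 22.4% of promoters met (20.9% to 24.0%), against 12.3% of all. It was more frequent still, 30.4% (27.9% to 33.1%), in promoters met by a region at shared ends. In classes of like GC content the shares in promoters met and in those met by no WT peak were 13.8% and 1.75% under 50% GC, 28.1% and 7.93% at 50% to 60% GC, 23.5% and 9.98% at 60% to 70%, and 16.7% and 4.91% at 70% and over. The NRF1 core CGCATGCG (5.32% against 2.59% of all), the YY1 motif AAGATGGCG (3.64% against 1.92%), the CRE TGACGTCA (4.21% against 2.40%) and the E-box CACGTG (12.2% against 7.97%) were also more frequent. In promoters met by a region at shared ends their shares were 5.10%, 4.94%, 4.69% and 11.3%, so these were not particular to ends of 1 gene. AP-1 sites TGANTCA were in 4.38% against 7.12% of all, the TATA box TATAAA in 5.73% against 13.5% and the RUNX motif TGTGGTT in 3.44% against 4.91%. Promoters met by no WT peak had AP-1 sites in 8.80%, TATA boxes in 18.1% and RUNX motifs in 5.77%. The gaps to these promoters differed between GC classes. At 60% to 70% GC, promoters met and those met by no WT peak had AP-1 sites in 4.33% and 4.78%. TATA boxes were there in 3.94% and 5.10% and RUNX motifs in 3.62% and 2.76%. Under 50% GC the pairs were 9.36% and 13.0% for AP-1, 20.2% and 32.7% for TATA boxes and 7.39% and 8.38% for RUNX. STAT sites TTCNNNGAA stood at 6.17% of promoters met against 7.88% of all, and the NF-Y box CCAAT at 36.4% against 39.1% of all. At 60% to 70% GC, promoters met and those met by no WT peak had STAT sites in 5.59% and 5.30% and CCAAT in 38.3% and 36.2%. These shares were not tested, and base composition differs between the groups of promoters.

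**Figure D5:**
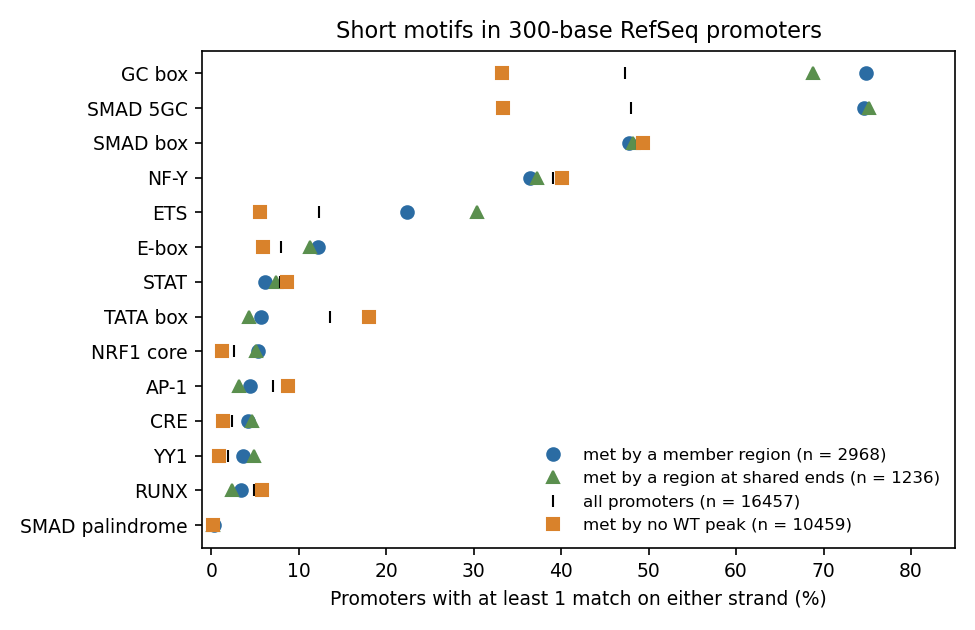
Share of 300-base promoters with at least 1 match to each motif (percent, either strand), for promoters met by a gene-end region (blue), met by a region at shared ends (green), all promoters (black ticks) and those met by no WT peak (orange). GC box, GGCGC and ETS shares are higher in the first 2 groups, and CAGAC is at 47.7% to 49.4% in all of them.

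With the 2968 promoters in 5 groups by the smaller width, the ETS share was 24.2%, 25.8%, 29.1%, 20.7% and 12.3% from the narrowest to the widest. The widest group (962 to 4596 bp) also had the highest median GC content, 67.3%. Within 50% to 60% GC the ETS share was 34.7% (28.1% to 41.8%) in the narrowest and 17.0% (9.87% to 26.6%) in the widest group. At 60% to 70% GC it was 21.4%, 28.5%, 32.3%, 22.2% and 12.1% in order of width, and at 70% and over 17.6%, 12.1%, 23.0%, 21.7% and 11.4%. A steady fall was seen in the first of these classes alone. The widest group had the lowest ETS share in each of them, though at 70% and over the second group was close to it. The GC box was in 69.4% of the narrowest and 82.8% of the widest group. At 50% to 60% GC these shares were 54.6% (47.3% to 61.7%) and 62.5% (51.5% to 72.6%). They were 83.8% and 82.7% at 60% to 70% GC and 95.1% and 96.2% at 70% and over. CAGAC stayed between 45.6% and 49.6% in all 5. The CRE was in 5.72%, 4.38%, 3.87%, 5.73% and 1.35% (0.583% to 2.64%) from the narrowest to the widest, beside 1.34% of promoters met by no WT peak. Its higher share over the set was thus not seen in the widest group. In the narrowest and widest groups it was 7.65% and 1.14% at 50% to 60% GC and 6.99% and 1.21% at 60% to 70%. At 70% and over these shares were 0.980% and 1.69%.

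Compared with WT-only regions inside genes, those at 1 gene end were wider in both libraries. Their medians of 670 and 586 bp stand beside 654 and 608 bp for the 943 regions at ends shared by several genes, and beside 562 and 450 bp for the 3335 regions inside genes under 100 kb. The floor width in WT replicate 2 held 8.24% of them, 6.15% of the shared-end regions and 15.1% of those inside. Because the 2 WT libraries are the only replicates, these differences were not tested. Peaks at 1 gene end met the other WT list more often than those inside genes: 75.1% of those in WT replicate 1 and 88.7% in WT replicate 2, against 56.8% and 83.6% for peaks inside genes under 100 kb. Peaks at shared ends did so in 80.0% and 88.5%, so this was not particular to ends of 1 gene.

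Before KO peaks were considered there were 4390 reproducible WT regions at 1 gene end, and 98.4% of them met no KO peak, which is how the set was formed. The other 72 met a peak of KO replicate 1 (60), KO replicate 2 (24) or both (12), and 53 of them were at a start and 4 at a 3′ end. The widest lay at H2-DMa, a gene of antigen presentation (5400 and 5076 bp; chr17:34117723-34123122), at Skil (4222 and 5148 bp; chr3:31092444-31097591) and at Bhlhe40 (5034 and 3882 bp; chr6:108657751-108662784). The share meeting KO was 1.64% (1.29% to 2.06%) at 1 gene end, 0.945% at shared ends, 3.64% inside genes under 100 kb and 5.66% outside genes. Among regions with a smaller width of 1200 bp or more the shares were 6.52% (4.53% to 9.04%) at 1 gene end and 19.8% (15.1% to 25.4%) outside genes. KO peaks themselves were at 1 gene end in 11.6% (9.04% to 14.6%) and 6.71% (4.51% to 9.56%) of the autosomal peaks of KO replicates 1 and 2, against 22.1% and 26.3% in WT replicates 1 and 2. The nearest KO peak lay a median of 922 kb from a gene-end region, and within 1 kb in 12 cases.

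Genes of middle length had a gene-end region most often, 28.8% (27.5% to 30.1%) of those of 30 to 100 kb, against 12.5% (11.7% to 13.3%) under 10 kb and 21.3% (19.7% to 23.1%) over 100 kb. In genes over 100 kb, a WT-only region deeper inside accompanied it in 60% (55.6% to 64.4%), against 30.4% (28.3% to 32.6%) of genes of that length without a gene-end region. In genes of 30 to 100 kb these shares were 33.3% and 21.5%. A long noncoding RNA gene also started or ended within 1 kb of 13.5% of the regions (585 of 4318), among them the region at Bcl6. Of the regions at starts, 446 of 3313 had a listed start of another gene within 1 kb of their centre. Such a start lay at Pim1 (that of Gm26885), Foxn3 (Gm26839), Fyn (Gm31616) and Stat3 (Gm46295). By chromosome, the share of genes bound was between 13.5% on chromosome 7 and 24.4% on chromosome 10.

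The limit of 1 kb cut through a continuous set. The regions just inside it lay at Atl3 (999.5 bp; 2536 and 2194 bp wide), Ccr8 (997.5 bp; 1324 and 1148 bp) and Ptpn22 (995.5 bp; 626 and 500 bp). Those just outside lay at Cyrib (1000.5 bp; 1520 and 1098 bp), Apc (1003 bp; 768 and 814 bp) and Trim41 (1003.5 bp; 694 and 902 bp). From 900 to 1000 bp there were 111 regions with medians of 574 and 436 bp, and from 1000 to 1100 bp 103 with medians of 550 and 480 bp.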

How the data were processed

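Each ChIP sample came with 1 peak list, which the authors deposited on mm10 as positions alone, with no score. Trim Galore, Bowtie and HOMER 4.8.3 are named, without roles, per the submitters' processing notes; for thresholds and the use of input the sources used here give nothing. Positions are printed 1-based. Gene bounds came from RefSeq on GRCm38.p6, using 20560 autosomal protein-coding genes and leaving out genes starting below 3 Mb; strand and promoters came from a RefSeq table covering 16457 of them. A gene's promoter was the listed one nearest its bound. The annotation held no exons. Widths are summed over the peaks of a library in a region. The membership rule was tested on simulated lists. No test was run: there are 2 libraries a genotype, and the members, lists and motifs were chosen with earlier results of these data known. Genes were named by the smaller width (the 12 first at starts, 6 at 3′ ends, the 3 narrowest, genes with most regions, up to 4 a list and a fixed set); others were picked after their values were seen. Software was SciPy 1.17.1 (intervals), pandas 2.3.3 with numpy 2.4.6 under Python 3.11.15, and matplotlib 3.10.9 (plots). The 12 alternatives tried are in the closing section. Some genes that the naming rule covers are not reported here.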

Additional observations from a re-analysis of the deposited data

How the results depend on the processing

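Counts of regions, genes and list genes stayed within 1.5 times of the reported 4318, 4192 and 119 under an overlap of 50% of both peaks, other gene-end windows, no KO peak within 1 kb, the ends of all annotated genes and without any 1 library. The exception was the upper part by summed peak width, with 2163 regions at 2143 genes and medians of 1012 and 890 bp by construction. Without each library in turn there were 4330 to 5839 regions at 4202 to 5395 genes, 119 to 144 list genes, 93.2% to 95.3% at the gene start, and median widths of 554 to 676 bp in WT replicate 1 and 518 to 590 bp in WT replicate 2; the lowest share and width came without WT replicate 2 and the lower width in WT replicate 2 without WT replicate 1. The centre's median distance from the start was 70.5 to 77.5 bp in these, 64.5 bp with the 50% overlap, 52.5 bp with a 500 bp window, 96.0 bp with 2 kb, 98.0 bp for the upper part by width and 55.5 bp for regions over the gene end. The share at the start was 97.3% with 500 bp, 92.5% with 2 kb, 97.1% for the upper part by width, 98.2% for regions over the gene end and 91.6% with all annotated genes. On 1 strand the SMAD box was in 29.0% and GGCGC in 61.6% of promoters met. Of the lists named above, IL-6 and STAT3 genes fell to 9 with 500 bp and Th1 and Th2 genes rose to 7 without WT replicate 2. Cell cycle genes fell to 9 with the 50% overlap and glycolysis genes to 4 with all annotated genes. For the upper part by width, regulatory T cell genes fell to 3, Th1 and Th2 genes to 1 and glycolysis genes to 4. The neuron list had 1 gene with 2 kb, beside the changes of marker lists given above. The causes were not tested. No paired analysis was possible because these regions hold no KO peak whose width could be paired with a WT width. Read depth is unknown, and its part in widths and counts of peaks was not tested.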
